A study of Mus musculus with 8 samples.

Results

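Irf2 KO monocytes were compared directly with Nr4a1 KO monocytes, using 4 of the 8 RNA-seq libraries of a study of mouse Ly6C-high (classical) monocytes from bone marrow. The members were 2 Irf2 KO libraries and 2 Nr4a1 KO libraries. The other 4 libraries came from 2 wild-type and 2 Bcl6 cKO samples, and they serve here to place each difference and to estimate the spread between replicates. Of 13744 genes in the table, the 12752 with a mean of at least 1 CPM (counts per 1e6 reads, averaged on the log2 scale over the 8 libraries) were tested. The labels call the Irf2 and Nr4a1 alleles knockouts and the Bcl6 allele a conditional knockout. The sources used here do not state the deleted part of each gene, the Cre line, the strain, or the age and sex of the mice. Nor do the labels state that the 2 replicates of a genotype were separate animals, so every p-value reflects only how much these samples varied, and that variation may be technical.

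IRF2 is a transcription factor of the interferon regulatory factor family. It binds the interferon-stimulated response element and was first described as a repressor that competes with IRF1 at interferon-responsive genes, and it can also act as an activator. NR4A1 (Nur77) is an orphan nuclear receptor encoded by an immediate early gene, and mice without it lack most nonclassical, Ly6C-low monocytes. Classical monocytes are made in the bone marrow, enter inflamed tissue and are the source of the nonclassical cells.

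The libraries held 47809135 and 55920882 reads for Irf2 KO, and 48579784 and 46617756 reads for Nr4a1 KO, within a range of 46617756 to 62633123 over all 8. A value of 1 CPM stood for 47.9 to 61.8 reads, so counting error was small for all but the lowest genes. The genes that define the sorted cell were high in every library, with 11.49 to 12.61 log2 CPM for Ly6c2, 8.23 to 9.20 for the growth factor receptor gene Csf1r and 9.83 to 10.75 for the chemokine receptor gene Ccr2. Ly6g, which marks neutrophils, reached at most 1.99 log2 CPM, but the neutrophil markers as a list were not low. The median of the 18 tested was 4.61 and 5.95 log2 CPM in Irf2 KO libraries, against 7.05 and 6.78 in Nr4a1 KO libraries. Several of these markers are also expressed by classical monocytes, and the part of neutrophil RNA was not tested. The 2 Nr4a1 KO libraries stood further apart than the others: 761 genes differed over 2-fold between them, against 429 between the Irf2 KO libraries and 442 between the wild-type libraries. Interferon-stimulated, guanylate-binding protein and MHC genes were among those that separated the Nr4a1 KO libraries, and results on these groups are given below with and without each library.

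The targeted genes were examined first. Irf2 (chr8:46739732-46847458, GRCm38) stood at 6.50 and 6.69 log2 CPM in Irf2 KO libraries, against 7.21 and 7.57 in Nr4a1 KO libraries and 7.18 and 7.14 in wild type. Its level was lower in Irf2 KO by a log2 fold change of -0.79 ± 0.14 (SE, n = 2 each, adjusted p = 0.00462). Reads were counted over the whole gene and the deleted part is not known, so reads that remain neither support nor contradict the label. Nr4a1 (chr15:101254269-101274795) stood at 2.59 and 2.52 log2 CPM in Irf2 KO libraries, against 2.32 and 2.98 in Nr4a1 KO libraries and 4.64 and 5.29 in wild type. The libraries of both knockouts thus overlapped and lay below wild type, and the test between the knockouts gave -0.09 ± 0.27 (adjusted p = 0.832). Against wild type, the log2 fold change of Nr4a1 was -2.41 for Irf2 KO (adjusted p = 0.0016) and -2.31 for the Nr4a1 KO libraries (adjusted p = 0.00062). Bcl6, which encodes a transcriptional repressor, read 3.37 and 3.79 log2 CPM in Irf2 KO libraries, against 4.65 and 4.74 in Nr4a1 KO libraries and 4.66 and 4.64 in wild type. It was lower in Irf2 KO (-1.12 ± 0.16, adjusted p = 0.00173).

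At an adjusted p under 0.05, 2850 genes (22.3% of those tested) differed between Irf2 KO and Nr4a1 KO monocytes. Of these, 1583 genes (12.4%) were higher in Irf2 KO and 1267 (9.94%) were lower. A difference of over 2-fold was found for 652 higher genes (5.11%) and 495 lower genes (3.88%). The median log2 fold change over all genes tested was 0.00. With 2 libraries a group, the libraries did not overlap for 63.1% of all genes, so a gap between the groups alone says little about one gene. Leaving out Irf2 KO replicate 1 left 1734 genes and leaving out Irf2 KO replicate 2 left 1460, while 1104 genes (680 higher, 424 lower) were called whichever of the 8 libraries was left out. Genes higher in Irf2 KO had a median GC content of 51.2% and a median transcript length of 2424 bases, lower genes 48.2% and 3495 bases, and all tested genes 49.0% and 2965 bases. After a correction of each library for GC content and length, 2913 genes were called, and 2385 of the 2850 kept their call and direction.

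**Figure D1:**
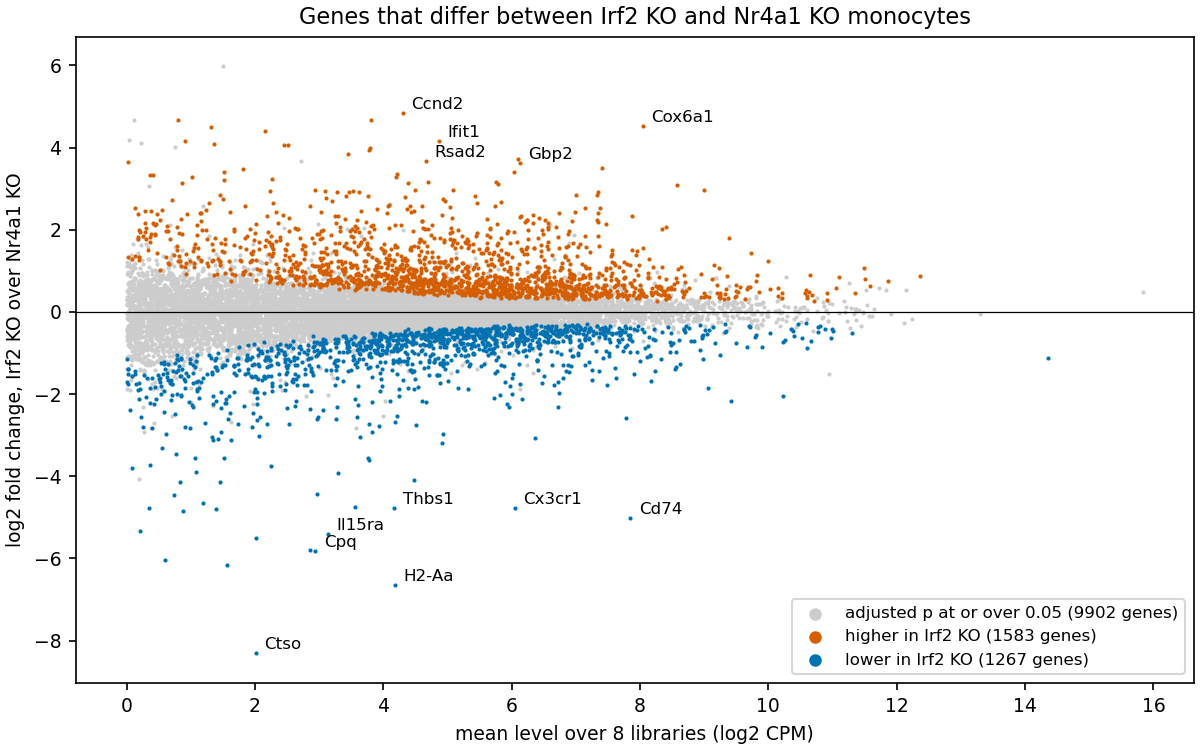
Each point is a gene, with its mean level over 8 libraries (log2 CPM) on the horizontal axis and the log2 fold change of Irf2 KO over Nr4a1 KO on the vertical axis; orange marks the 1583 genes higher in Irf2 KO, blue the 1267 lower, grey the rest. The named falls, led by Ctso and H2-Aa, run further from 0 than the named rises, led by Ccnd2 and Cox6a1.

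Because both knockouts were also set against the same wild-type libraries, a differing gene that was called against wild type can be placed by which knockout left the wild-type level. Both of these comparisons use the same wild-type libraries, so they are not independent of each other. They also use the knockout libraries on which the differing genes were chosen. The placement therefore describes levels and is no independent test, and the shares over all genes are no baseline for it. Over all genes tested, 9.26% were higher and 12.3% lower in Irf2 KO than in wild type, and 3.94% were higher and 11.2% lower in Nr4a1 KO than in wild type. Among the 1583 genes higher in Irf2 KO than in Nr4a1 KO, 690 (43.6%) were below wild type in Nr4a1 KO with no call in Irf2 KO. Another 395 (25.0%) were above wild type in Irf2 KO with no call in Nr4a1 KO, and 299 had no call against wild type in either. Of the 1267 genes lower in Irf2 KO, 673 (53.1%) were below wild type in Irf2 KO with no call in Nr4a1 KO, 83 were above wild type in Nr4a1 KO with no call in Irf2 KO, and 464 (36.6%) had no call in either.

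**Figure D2:**
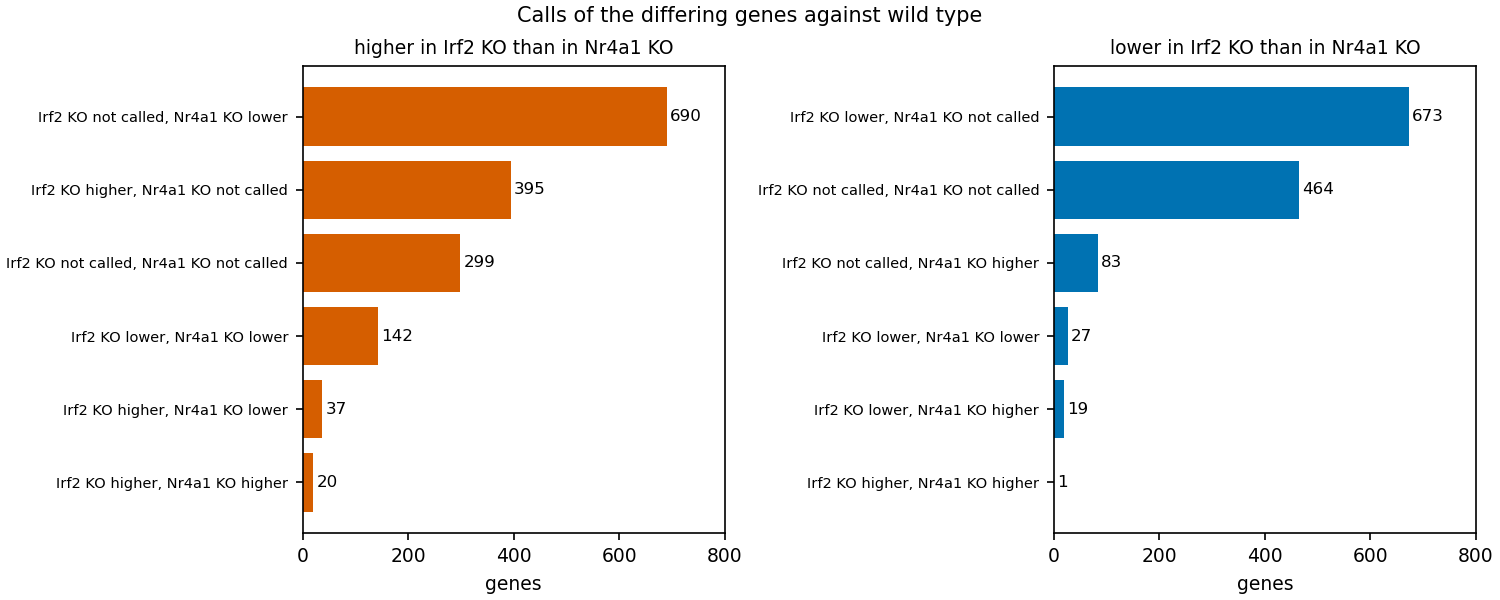
Bars give the number of genes in each combination of calls against wild type, for the 1583 genes higher (left panel, orange) and the 1267 genes lower (right panel, blue) in Irf2 KO than in Nr4a1 KO monocytes. The longest bar on the left is 690 genes below wild type in Nr4a1 KO alone, and the longest on the right is 673 genes below wild type in Irf2 KO alone.

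The largest rise was in Ccnd2 (chr6:127125162-127152193), which encodes cyclin D2, a partner of CDK4 and CDK6 in the exit from G1. Ccnd2 stood at 7.93 and 7.54 log2 CPM in Irf2 KO libraries, against 1.97 and 3.83 in Nr4a1 KO libraries and 3.02 and 3.06 in wild type. The difference was 28.5-fold (log2 4.83 ± 0.48, adjusted p = 0.000305), and Irf2 KO was above every other library. Neither of the other D-type cyclins differed by the test: Ccnd1 gave 0.75 ± 0.45 (adjusted p = 0.267) and Ccnd3 -0.01 ± 0.21 (adjusted p = 0.979). Of the 12 genes with the largest rises, Ccnd2, Ifit1, Rsad2 and Gbp2 were above wild type in Irf2 KO with no call in Nr4a1 KO.

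The other 8 of the 12 were below wild type in Nr4a1 KO. They were led by Cox6a1 (chr5:115345642-115348981), a nuclear-encoded subunit of cytochrome c oxidase, with 9.27 and 9.52 log2 CPM in Irf2 KO libraries, against 4.64 and 5.11 in Nr4a1 KO libraries and 9.32 and 9.64 in wild type. Irf2 KO and wild-type libraries overlapped for Cox6a1 and the 2 Nr4a1 KO libraries lay far below, a difference of 22.9-fold between the knockouts (log2 4.52 ± 0.24, adjusted p = 2.51e-05). Cox8a, another subunit of the same complex, gave 3.50 ± 0.22, and Coa6, an assembly factor of that complex, gave 3.28 ± 0.26. The rest of this group was Alkbh6 (3.98 ± 0.22), Snrpa of the U1 small nuclear ribonucleoprotein (3.72 ± 0.23), Mrpl12 of the mitochondrial ribosome (3.41 ± 0.14), Gtf2h4 of the general transcription factor TFIIH (3.37 ± 0.22) and the kinase gene Rps6ka4 (3.23 ± 0.24). Mrpl12 was also above wild type in Irf2 KO, by 0.76 (adjusted p = 0.0089), and Rps6ka4 was below wild type there (-0.85, adjusted p = 0.035).

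The largest fall was in Ctso (chr3:81932601-81956725), which encodes cathepsin O, a cysteine protease of the lysosome. Ctso had 0 and 16 reads in Irf2 KO libraries, against 762 and 1011 reads in Nr4a1 KO libraries. In log2 CPM, wild type stood at 4.04 and 4.33, next to 3.90 and 4.40 in Nr4a1 KO. The fitted log2 fold change was -8.31 ± 1.20 (adjusted p = 0.00192), a value that depends on the 0.5 reads added before the logarithm because one Irf2 KO library held none. Cpq (chr15:33083129-33594552), which encodes carboxypeptidase Q, had 18 and 20 reads in Irf2 KO libraries, against 802 and 1402 in Nr4a1 KO libraries. That was a 56.7-fold fall (log2 -5.82 ± 0.28, adjusted p = 2.51e-05), and Nr4a1 KO did not differ from wild type by the test (0.11, adjusted p = 0.83).

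Il15ra (chr2:11705290-11734317), the receptor chain that presents interleukin-15 to neighbouring cells, had 14 and 76 reads in Irf2 KO libraries, against 1222 and 1503 in Nr4a1 KO libraries. Its fall was 42.3-fold (log2 -5.40 ± 0.57, adjusted p = 0.000407). Cx3cr1, the fractalkine receptor gene, stood at 3.72 and 1.73 log2 CPM in Irf2 KO libraries, against 7.42 and 7.57 in Nr4a1 KO libraries and 7.27 and 7.82 in wild type (-4.77 ± 0.51, adjusted p = 0.000413). Thbs1, which encodes the matrix protein thrombospondin-1, stood at 0.66 and 0.66 log2 CPM in Irf2 KO libraries, against 6.38 and 4.48 in Nr4a1 KO libraries (-4.77 ± 0.53, adjusted p = 0.000489). Hpgd, the prostaglandin-degrading dehydrogenase gene (-4.10 ± 0.41), and Plaat3, a phospholipase gene (-5.50 ± 0.79), fell too. Each of these genes was also below wild type in Irf2 KO, with adjusted p between 0.00015 and 0.0068, and not called between Nr4a1 KO and wild type. The remaining genes of the 12 were H2-Aa, H2-Eb1 and Cd74 of MHC class II, the lectin gene Cd209a and the immunoglobulin gene Igkc, described with their groups. Cd209a (-4.75 ± 1.38, adjusted p = 0.0393) lost its call without either library of Nr4a1 KO, wild type or Bcl6 cKO (adjusted p up to 0.11).

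**Figure D3:**
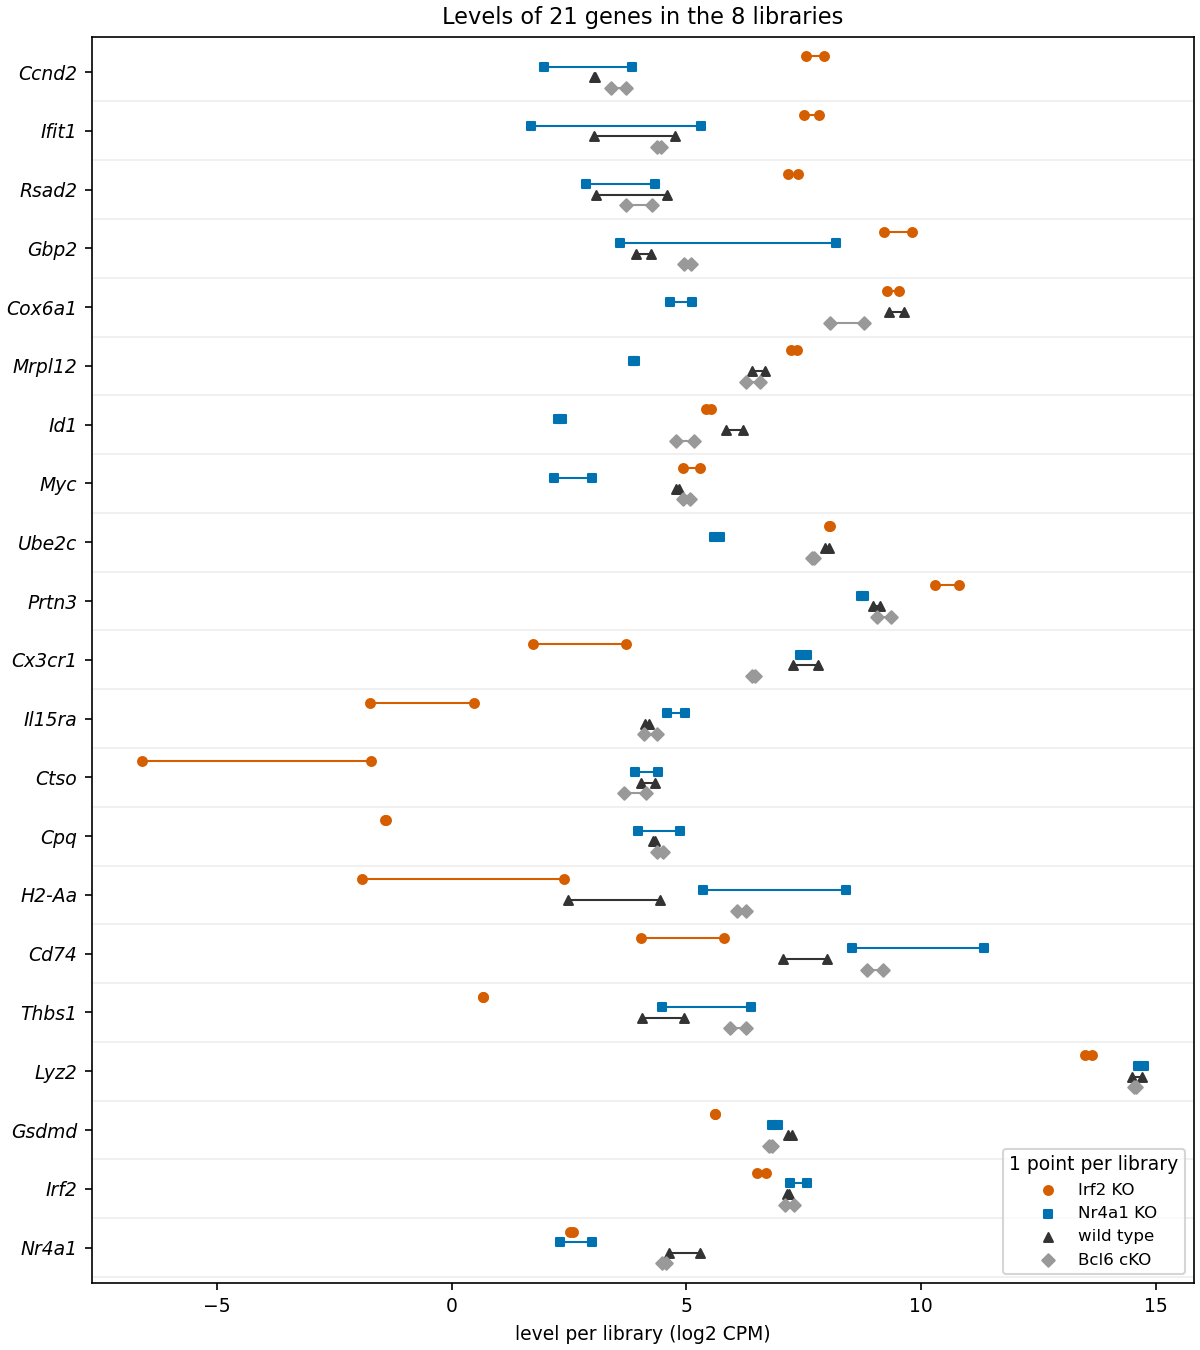
Each row is a gene and each point a library, at its level in log2 CPM; the genotypes run from Irf2 KO (top, orange) over Nr4a1 KO and wild type to Bcl6 cKO, and a line joins the 2 libraries of a genotype. For Ccnd2, Ifit1 and Rsad2 the Irf2 KO points lie apart on the right, for Cox6a1, Mrpl12, Id1 and Ube2c the Nr4a1 KO points lie apart on the left, and for Cx3cr1, Il15ra, Ctso and Cpq the Irf2 KO points lie apart on the left.

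Type I interferon-stimulated genes, whose products restrict viruses and which carry the elements that IRF proteins bind, tended to be higher in Irf2 KO. Of 58 members tested 12 (20.7%, against 12.4% of all genes) were higher and 0 were lower, and the median log2 fold change was 0.82, against 0.00 over all genes. Rsad2, which encodes viperin, stood at 7.17 and 7.38 log2 CPM in Irf2 KO libraries, against 2.86 and 4.33 in Nr4a1 KO libraries and 3.07 and 4.58 in wild type. It rose by 3.68 ± 0.54 (adjusted p = 0.00203). Ifit1, which encodes a protein that binds viral RNA ends, stood at 7.50 and 7.82 in Irf2 KO libraries, against 1.68 and 5.31 in Nr4a1 KO libraries (4.16 ± 0.98, adjusted p = 0.0174). The call of Ifit1 was lost without either Irf2 KO library (adjusted p up to 0.0868). Bst2, the gene of tetherin, stood at 8.45 and 8.71 in Irf2 KO libraries, against 5.39 and 6.68 in Nr4a1 KO libraries (2.54 ± 0.40, adjusted p = 0.00287). Cmpk2, a mitochondrial nucleotide kinase gene, rose by 1.68 ± 0.23 (adjusted p = 0.00161), and the others that rose were Phf11b, Trim30a, Isg15, Zbp1, Oas1g, Oas1a, Herc6 and Tor3a. Oas1a and Oas1g are close copies, so reads could be split between them.

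Which interferon-stimulated genes were called depended on the library. The median level of the list was 6.29 and 6.45 log2 CPM in Irf2 KO libraries, against 4.51 and 6.22 in Nr4a1 KO libraries and 5.45 and 6.39 in wild type. Nr4a1 KO replicate 1 was the lowest of all 8, and replicate 2 lay close to Irf2 KO. Without Nr4a1 KO replicate 2, 41 members were higher and the median was 1.77. Without Nr4a1 KO replicate 1, 9 were higher and 5 lower and the median was 0.02. Without Irf2 KO replicate 2, 3 were higher and 1 was lower. Rsad2, Cmpk2 and Bst2 were higher whichever library was left out. Trim30a, Phf11b and Herc6 lost their calls without Irf2 KO replicate 2 (adjusted p up to 0.0967), Tor3a without either Irf2 KO library (up to 0.101) and Oas1g without Irf2 KO replicate 2 or Nr4a1 KO replicate 1 (up to 0.151). Isg15, Oas1a and Zbp1 lost theirs without either library of Irf2 KO or of Bcl6 cKO, and Isg15 and Oas1a also without Nr4a1 KO replicate 1 (adjusted p up to 0.222). Irf7 (0.39 ± 0.60, adjusted p = 0.681) and Irf1 (-0.86 ± 0.57, adjusted p = 0.314), which encode factors that drive the interferon response, were not called between the knockouts.

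The promoters of Gbp2, Ifit1 and Rsad2, from the 12 largest rises, and of Bst2 are shown because they carry the letters of an IRF element. Each stretch runs from 250 bases before to 50 after the RefSeq gene start on the gene's own strand (RefSeq, GRCm38.p6), and capitals mark matches to AAANNGAAA on either strand, which may overlap. They are Gbp2 (chr3:142620413-142620712, plus strand), Ifit1 (chr19:34640639-34640938, plus strand), Rsad2 (chr12:26456403-26456702, minus strand) and Bst2 (chr8:71537423-71537722, minus strand).
Gbp2: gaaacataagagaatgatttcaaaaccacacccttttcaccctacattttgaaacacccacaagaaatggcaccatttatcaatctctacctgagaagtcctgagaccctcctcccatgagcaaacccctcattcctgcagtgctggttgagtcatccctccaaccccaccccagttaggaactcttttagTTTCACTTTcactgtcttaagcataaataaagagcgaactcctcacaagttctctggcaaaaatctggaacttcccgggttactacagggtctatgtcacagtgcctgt
Ifit1: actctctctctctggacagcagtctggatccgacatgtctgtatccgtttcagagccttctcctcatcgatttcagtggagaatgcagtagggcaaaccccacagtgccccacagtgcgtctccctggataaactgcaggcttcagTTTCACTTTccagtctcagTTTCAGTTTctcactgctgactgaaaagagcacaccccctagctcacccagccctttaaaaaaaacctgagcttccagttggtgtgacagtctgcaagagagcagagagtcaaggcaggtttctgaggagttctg
Rsad2: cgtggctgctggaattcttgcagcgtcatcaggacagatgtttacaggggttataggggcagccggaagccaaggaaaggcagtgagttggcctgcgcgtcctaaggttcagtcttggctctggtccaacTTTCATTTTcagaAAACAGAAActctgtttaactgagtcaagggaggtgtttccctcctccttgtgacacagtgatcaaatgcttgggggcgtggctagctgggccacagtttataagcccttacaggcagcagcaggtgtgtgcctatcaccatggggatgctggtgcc
Bst2: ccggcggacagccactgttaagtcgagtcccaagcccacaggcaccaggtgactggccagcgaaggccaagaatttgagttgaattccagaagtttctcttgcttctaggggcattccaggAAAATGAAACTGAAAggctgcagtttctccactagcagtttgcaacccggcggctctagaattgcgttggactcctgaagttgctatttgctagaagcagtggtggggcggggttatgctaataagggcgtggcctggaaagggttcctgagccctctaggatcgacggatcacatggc
All the matches in these 4 promoters lie before the start. The promoter of Cmpk2, another interferon-stimulated gene that rose, held 0 matches and is not shown. Of the 44 tested interferon-stimulated genes with a promoter in the RefSeq table, 75% held the letters in any of their promoters. The share was 9.98% for the 8677 tested genes with a promoter. Counted per promoter instead of per gene, it was 10.6% of all 32851.

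The letters were also looked for among the genes that fell. Ctso (chr3:81932351-81932650, plus strand) and Il15ra (chr2:11705462-11705761, plus strand, the second of its promoters in the table) are shown because they were the genes with a match among the 12 largest falls.
Ctso: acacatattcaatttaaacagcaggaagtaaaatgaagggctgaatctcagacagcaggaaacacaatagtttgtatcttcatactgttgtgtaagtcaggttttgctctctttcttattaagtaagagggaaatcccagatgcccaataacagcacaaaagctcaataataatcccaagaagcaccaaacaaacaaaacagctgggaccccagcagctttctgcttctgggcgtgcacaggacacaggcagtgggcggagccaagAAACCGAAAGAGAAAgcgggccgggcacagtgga
Il15ra: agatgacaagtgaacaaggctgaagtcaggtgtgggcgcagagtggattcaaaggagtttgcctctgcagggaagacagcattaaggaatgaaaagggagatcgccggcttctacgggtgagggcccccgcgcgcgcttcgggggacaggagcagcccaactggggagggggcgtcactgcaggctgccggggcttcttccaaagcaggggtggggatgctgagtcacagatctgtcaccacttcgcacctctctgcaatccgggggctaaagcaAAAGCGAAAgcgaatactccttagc
In both promoters the matches lie after the start, and in Ctso 2 matches overlap. Of the genes lower in Irf2 KO, 13.5% held the letters in any of their promoters (17.6% of those over 2-fold lower). The share was 9.01% for genes higher in Irf2 KO (10.5% of those over 2-fold higher) and 9.98% for all tested genes with a promoter. The letters AAAGGTCA, the monomer element of NR4A receptors, were in a promoter of 0.927% of higher genes, 1.46% of lower genes and 1.20% of all tested. A match is a description of the sequence and does not show that either factor binds there.

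The guanylate-binding proteins and immunity-related GTPases, which attack the vacuoles of intracellular pathogens and are induced mainly by interferon-gamma, were high in Irf2 KO and varied most in Nr4a1 KO. The list's median level was 4.91 and 5.54 log2 CPM in Irf2 KO libraries, against 1.85 and 5.72 in Nr4a1 KO libraries, 2.22 and 3.88 in wild type, and 3.99 and 4.10 in Bcl6 cKO. Gbp2 stood at 9.21 and 9.81 log2 CPM in Irf2 KO libraries, against 3.59 and 8.18 in Nr4a1 KO libraries and 3.93 and 4.25 in wild type. It was higher than in Nr4a1 KO by 3.62 ± 1.12 (adjusted p = 0.0487), a call lost without either library of Irf2 KO, wild type or Bcl6 cKO (adjusted p up to 0.19), and higher than in wild type by 5.42 (adjusted p = 0.012). Gbp2 was the 1 member of 15 tested that passed (6.67%, against 12.4% of all genes), although 13 of 15 had a positive log2 fold change and the median was 1.10. Without Nr4a1 KO replicate 2, 13 members were higher (median 3.03). Without Nr4a1 KO replicate 1, 2 were higher and 3 lower (median -0.89). Gbp4 had 0 and 1408 reads in the Nr4a1 KO libraries, next to 1006 and 3027 in the Irf2 KO libraries.

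MHC class I presentation genes followed the same libraries. Of 23 tested, 2 were higher (8.70%, against 12.4% of all genes) and 0 lower (median 0.38). Without Nr4a1 KO replicate 2, 13 were higher (median 1.16), and without Nr4a1 KO replicate 1, 2 were higher and 2 lower (median -0.22). Without Irf2 KO replicate 2, 1 was higher and 1 lower (median 0.24), and without Irf2 KO replicate 1 the median was 0.66. Psmb8, a subunit of the immunoproteasome, stood at 9.18 and 9.60 log2 CPM in Irf2 KO libraries, against 6.53 and 8.13 in Nr4a1 KO libraries (2.06 ± 0.42, adjusted p = 0.00934; 0.0635 without Irf2 KO replicate 2). Calr, the gene of the chaperone calreticulin, rose by 1.39 ± 0.16 (adjusted p = 0.000537).

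MHC class II genes, whose products present peptides to CD4+ T cells, were lower in Irf2 KO where they were called. Of 15 tested members 6 (40%, against 9.94% of all genes) were lower in Irf2 KO, 0 were higher, and the median was -0.77. H2-Aa, the alpha chain gene, stood at 2.39 and -1.91 log2 CPM in Irf2 KO libraries, against 5.35 and 8.41 in Nr4a1 KO libraries and 2.47 and 4.43 in wild type. It fell by 6.64 ± 1.36 (adjusted p = 0.00981). Cd74, the invariant chain gene, stood at 5.80 and 4.04 in Irf2 KO libraries, against 8.53 and 11.33 in Nr4a1 KO libraries and 7.06 and 8.00 in wild type (-5.01 ± 0.84, adjusted p = 0.00391). H2-Eb1, a beta chain gene, fell by 5.80 ± 0.82 (adjusted p = 0.00172). Ciita, the master regulator of the class II genes, stood at -0.67 and -0.66 in Irf2 KO libraries, against 1.92 and 5.03 in Nr4a1 KO libraries (-4.14 ± 0.79, adjusted p = 0.00742). H2-DMa (-1.27 ± 0.24), which loads peptides, and H2-DMb1 (-0.77) also fell, both calls being lost without Irf2 KO replicate 2 (adjusted p = 0.0517 and 0.0908).

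For the class II genes with the largest falls, wild type lay between the knockouts. H2-Aa, Cd74 and Ciita were not called against wild type in either knockout, and H2-Eb1 was above wild type in Nr4a1 KO (3.19, adjusted p = 0.033) but not called in Irf2 KO (-2.61, adjusted p = 0.053). Without Irf2 KO replicate 2, 4 members were lower, and without Nr4a1 KO replicate 1, 8 were. Markers of other cells that carry MHC class II were measured too. Of 12 conventional dendritic cell markers tested, 7 were lower (58.3%, against 9.94% of all genes) and 1 was higher (8.33%, against 12.4%) in Irf2 KO. The 13 dendritic cell markers in the table summed to 246 and 228 CPM in Irf2 KO libraries, against 441 and 422 CPM in Nr4a1 KO libraries. Of 6 B cell markers tested 3 were lower (50%, against 9.94% of all genes), 0 were higher and 2 had a positive log2 fold change. The 9 in the table summed to 735 and 793 CPM in Irf2 KO libraries, against 674 and 1037 CPM in Nr4a1 KO libraries, which overlap. The lower ones included Igkc with -4.43 ± 0.70 (adjusted p = 0.00295), while the B cell factor gene Ebf1 was at 0 and 2 reads in the Irf2 KO libraries, next to 37 and 50 in Nr4a1 KO libraries. Their part in the fall of the class II genes was not tested. In bulk samples, fewer cells of a type and less RNA per cell cannot be told apart.

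**Figure D4:**
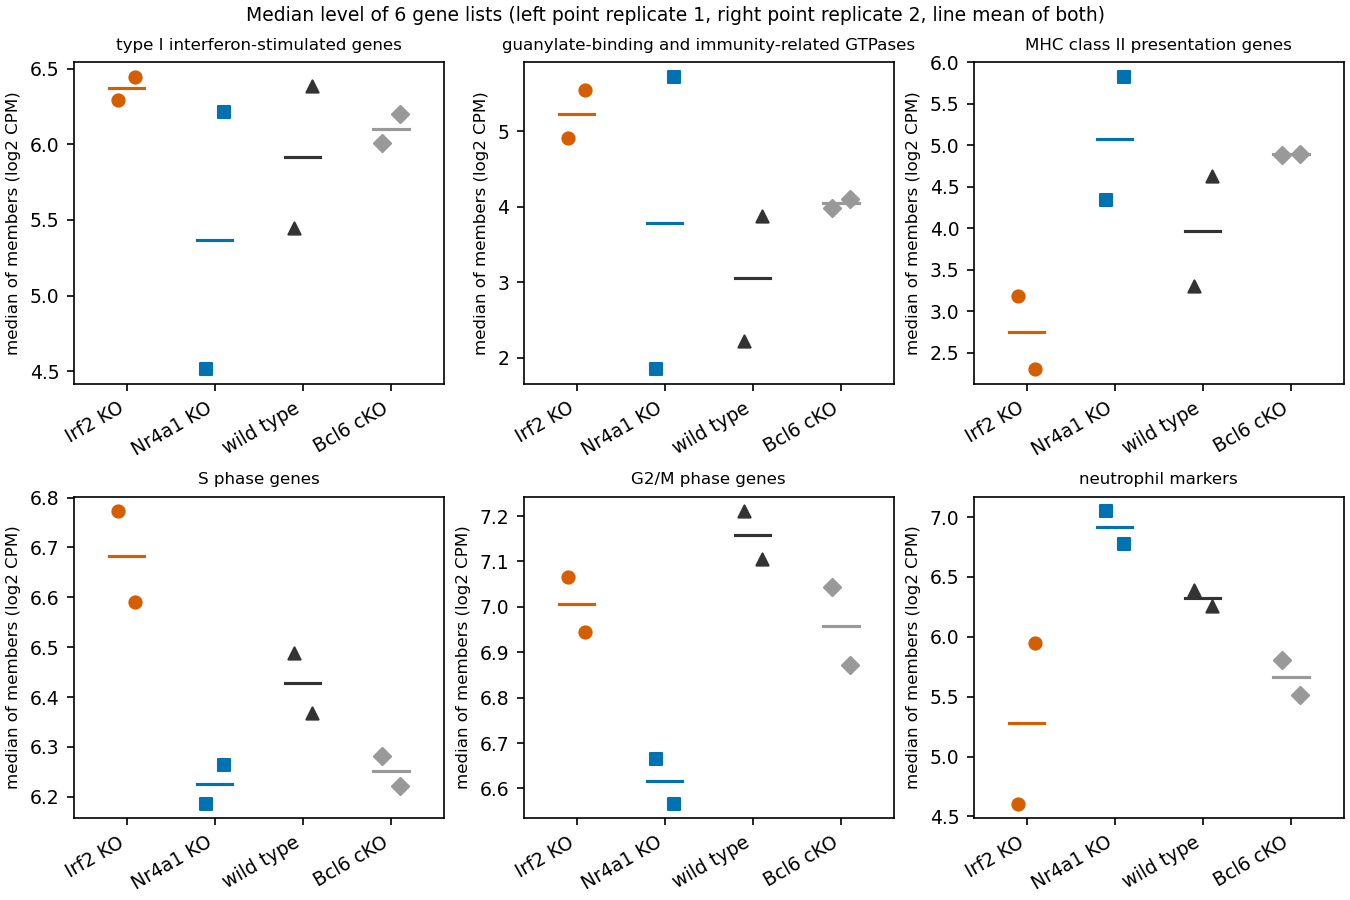
Each panel gives the median level (log2 CPM) of the members of 1 gene list in each library, by genotype from Irf2 KO on the left to Bcl6 cKO on the right; the lines are the means of 2 libraries and each vertical axis has its own range. In the panels of interferon-stimulated genes and GTPases the Nr4a1 KO libraries lie far apart, and in the S phase panel both Irf2 KO libraries, at 6.77 and 6.59, lie above all others.

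Genes of the cell cycle were often higher in Irf2 KO and none of the S phase or G2/M genes was called lower. Of 29 S phase genes tested 20 (69.0%, against 12.4% of all genes) were higher, 0 were lower and all 29 had a positive log2 fold change, with a median of 0.48. Rrm2, a subunit of ribonucleotide reductase, stood at 9.64 and 9.62 log2 CPM in Irf2 KO libraries, against 8.67 and 8.33 in Nr4a1 KO libraries and 9.48 and 9.18 in wild type (1.13 ± 0.16, adjusted p = 0.00151). Ccne1, the cyclin E1 gene, rose by 1.57 ± 0.24 (adjusted p = 0.00279), the replicative helicase gene Mcm2 by 0.75 ± 0.12 and the licensing factor gene Cdt1 by 0.92 ± 0.17. Leaving out 1 library left 9 to 21 S phase genes: 9 without Irf2 KO replicate 1, 11 without Irf2 KO replicate 2, 11 without Nr4a1 KO replicate 1 and 13 without Nr4a1 KO replicate 2. Against wild type, 4 of the 29 were higher in Irf2 KO and 5 were lower in Nr4a1 KO. Over all genes these shares were 9.26% and 11.2%, so few members of the list were called against wild type.

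Of 30 G2/M genes tested 15 (50%) were higher, 0 were lower and the median was 0.40. Ube2c, which encodes the ubiquitin-conjugating enzyme of the anaphase-promoting complex, stood at 8.05 and 8.06 log2 CPM in Irf2 KO libraries, against 5.58 and 5.71 in Nr4a1 KO libraries and 7.95 and 8.03 in wild type. It rose by 2.41 ± 0.09 (adjusted p = 1.85e-05). The centromeric histone gene Cenpa rose by 2.18 ± 0.10 and the checkpoint gene Cdc20 by 1.43 ± 0.14. In this list 11 of the 30 members were below wild type in Nr4a1 KO and 0 were above it, while 2 were below and 0 above wild type in Irf2 KO. Over all genes 11.2% were below and 3.94% above wild type in Nr4a1 KO. In Irf2 KO 12.3% of all genes were below it and 9.26% above. Without Irf2 KO replicate 1, 8 G2/M genes were higher, and without Irf2 KO replicate 2, 7. The proliferation marker Mki67 did not pass (0.41 ± 0.14, adjusted p = 0.0612). Of the D-type cyclin list described next 26.7% were higher and 6.67% lower, against 12.4% and 9.94% of all genes. Among 15 D-type cyclins, CDK inhibitors and related genes tested, 4 were higher (Ccnd2, the inhibitor gene Cdkn1a with 1.16 ± 0.17, E2f3 with 1.20 ± 0.19 and Cdk4 with 0.50 ± 0.09) and Rb1 was lower (-0.53 ± 0.14; adjusted p up to 0.136 without either Irf2 KO library or Nr4a1 KO replicate 1).

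Of 30 nuclear-encoded respiratory chain genes tested 11 (36.7%, against 12.4% of all genes) were higher in Irf2 KO and 0 were lower, with a median of 0.24. After the correction for GC content and length 9 were higher, 1 was lower and the median was 0.14. Uqcrc1, a core subunit of complex III, stood at 9.67 and 9.92 log2 CPM in Irf2 KO libraries, against 6.55 and 7.11 in Nr4a1 KO libraries and 9.83 and 9.96 in wild type (2.97 ± 0.17, adjusted p = 3.2e-05). Cox5b stood at 6.82 and 7.24 in Irf2 KO libraries, against 4.69 and 4.81 in Nr4a1 KO libraries and 8.20 and 7.75 in wild type (2.28 ± 0.23, adjusted p = 0.000333). Atp5d of the ATP synthase rose by 1.41 ± 0.19. In Nr4a1 KO 8 of the 30 members were below wild type and 0 above it, and in Irf2 KO 9 were above and 3 below. Over all genes 11.2% were below and 3.94% above wild type in Nr4a1 KO. In Irf2 KO 9.26% of all genes were above it and 12.3% below. None of 13 mitochondrially encoded genes was called by limma (0 higher, 0 lower, median -0.09); the smallest adjusted p was 0.0692, for mt-Nd6 (-0.28 ± 0.10). Of 30 ribosomal protein genes 8 were higher (26.7%, against 12.4% of all genes), led by Rplp1 (0.56 ± 0.11, adjusted p = 0.00809), and the median was 0.18. After the correction for GC content and length 1 ribosomal protein gene remained higher and 1 was lower, and leaving out any 1 of the 8 libraries left 1 to 5 higher.

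**Figure D5:**
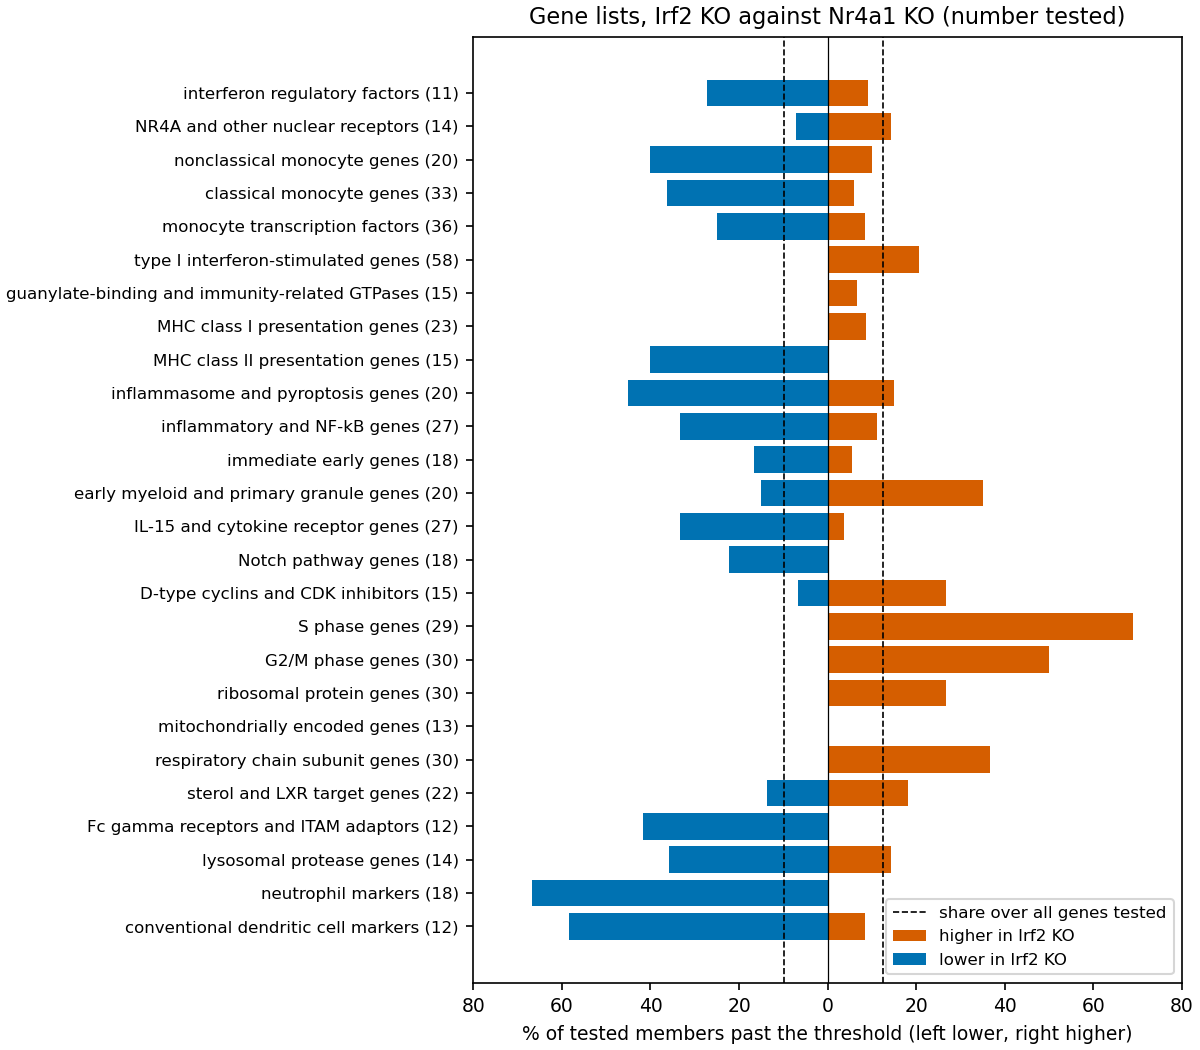
Bars give the share of tested members of each gene list that were higher (right, orange) or lower (left, blue) in Irf2 KO than in Nr4a1 KO, for lists with at least 10 members tested; dashed lines mark the shares over all genes, 12.4% higher and 9.94% lower. S phase genes reach furthest to the right, with 69.0%, and neutrophil markers furthest to the left, with 66.7%.

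Genes that mark monocyte subsets were more often lower than higher in Irf2 KO on both sides of the classical to nonclassical axis. Of 20 nonclassical genes tested, 8 were lower (40%, against 9.94% of all genes) and 2 were higher (10%, against 12.4%), with a median of -0.32, from a list of 29. Beside Cx3cr1, Pglyrp1, a peptidoglycan-binding protein gene, stood at 4.68 and 4.54 log2 CPM in Irf2 KO libraries, against 6.67 and 6.13 in Nr4a1 KO libraries and 6.95 and 7.14 in wild type (-1.79 ± 0.17, adjusted p = 0.00025). Treml4 stood at 0.90 and 1.03 in Irf2 KO libraries, against 2.27 and 2.29 in Nr4a1 KO libraries and 3.04 and 3.37 in wild type (-1.32 ± 0.23, adjusted p = 0.00473). For Pglyrp1 and Treml4 both knockouts were below wild type and Irf2 KO was the lower one. Lair1, an inhibitory collagen receptor gene, rose by 1.64 ± 0.23 (adjusted p = 0.00166) and Pparg by 1.64 ± 0.39 (adjusted p = 0.0179), the call of Pparg being lost without Irf2 KO replicate 1 or Nr4a1 KO replicate 2 (adjusted p up to 0.101). The transcription factor gene Klf2, linked to nonclassical monocytes, was not called (-0.03 ± 0.35, adjusted p = 0.969).

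Of 33 classical monocyte genes tested 12 were lower (36.4%, against 9.94% of all genes) and 2 were higher (6.06%, against 12.4%). The median was -0.29, and -0.13 without Irf2 KO replicate 1. Without either Irf2 KO library 1 was higher. Lyz2, the lysozyme gene of myeloid cells, stood at 13.50 and 13.63 log2 CPM in Irf2 KO libraries, against 14.62 and 14.74 in Nr4a1 KO libraries and 14.49 and 14.71 in wild type (-1.12 ± 0.12, adjusted p = 0.000408). With quantile normalization its difference was 0.00 and the call was lost. Its close copy Lyz1, with which it may share reads, fell by 1.14 ± 0.10. Cd14, the co-receptor for lipopolysaccharide, stood at 4.08 and 4.75 in Irf2 KO libraries, against 6.72 and 6.31 in Nr4a1 KO libraries and 5.58 and 5.29 in wild type (-2.10 ± 0.23, adjusted p = 0.000448). Cd14 was below wild type in Irf2 KO and above it in Nr4a1 KO. The fibronectin gene Fn1 (-2.05 ± 0.30), Ccr2 (-0.73 ± 0.13) and the integrin gene Itgam (-0.81 ± 0.15) fell as well. Without Nr4a1 KO replicate 2, 9 classical genes were higher and 12 lower.

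Neutrophil markers, several of which classical monocytes also express, were mostly lower in Irf2 KO. Of 18 tested 12 were lower (66.7%, against 9.94% of all genes), all 18 had a negative log2 fold change and the median was -1.72. The median was -1.03 without Irf2 KO replicate 1 and -2.38 without Irf2 KO replicate 2. The 20 markers in the table summed to 1665 and 2534 CPM in Irf2 KO libraries, against 4965 and 4128 CPM in Nr4a1 KO libraries and 3918 and 3642 CPM in wild type, and none of them was at 0. Cd177, a surface protein of neutrophils, stood at 6.68 and 6.27 log2 CPM in Irf2 KO libraries, against 9.37 and 8.74 in Nr4a1 KO libraries (-2.58 ± 0.22, adjusted p = 0.000137). S100a8, one chain of calprotectin, gave -1.85 ± 0.41 (adjusted p = 0.0135, and 0.0509 without Nr4a1 KO replicate 1) and the granule gene Ngp -1.96 ± 0.41. The Irf2 KO libraries differed from each other in these markers by a median of 1.53 on the log2 scale, replicate 2 being higher. Cd177 belongs to the list of classical genes as well, and the part of neutrophil RNA in the fall of classical genes was not tested.

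Among 36 monocyte transcription factor genes tested 9 were lower (25%, against 9.94% of all genes) and 3 were higher (8.33%, against 12.4%), with a median of -0.23. Id1, an inhibitor of basic helix-loop-helix factors, stood at 5.53 and 5.43 log2 CPM in Irf2 KO libraries, against 2.27 and 2.36 in Nr4a1 KO libraries and 6.20 and 5.85 in wild type (3.16 ± 0.18, adjusted p = 2.89e-05). Its relative Id2 stood at 7.53 and 7.23 in Irf2 KO libraries, against 9.44 and 8.71 in Nr4a1 KO libraries and 8.92 and 8.62 in wild type (-1.69 ± 0.23, adjusted p = 0.00155). The 2 inhibitors thus differed in opposite directions, Id1 being below wild type in Nr4a1 KO and Id2 below wild type in Irf2 KO. Myc stood at 5.29 and 4.92 in Irf2 KO libraries, against 2.19 and 2.997 in Nr4a1 KO libraries and 4.77 and 4.84 in wild type (2.52 ± 0.25, adjusted p = 0.000308). Cebpe, a factor of granulocyte maturation, rose by 1.91 ± 0.19, both knockouts being below wild type. Irf4 (-2.46 ± 0.46), the repressor gene Bach2 (-2.28 ± 0.38) and Spi1, which encodes PU.1 (-0.42 ± 0.10), were lower. With Irf2 KO replicate 1 left out, 5 of these factors were lower. Spi1 lost its call without either Irf2 KO library or Nr4a1 KO replicate 1 (adjusted p up to 0.114).

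The interferon regulatory factor list held 11 tested genes with 3 lower (Irf2, Irf4 and Irf2bp2) and 1 higher (Irf2bp1, 0.91 ± 0.23), the last lost without Irf2 KO replicate 1, Irf2 KO replicate 2 or Nr4a1 KO replicate 1 (adjusted p up to 0.112) and Irf2bp2 without Irf2 KO replicate 2 (0.0854). Irf8, which monocyte progenitors require, was not called (0.28 ± 0.21, adjusted p = 0.374). Of the interferon regulatory factor list 27.3% were lower and 9.09% higher, against 9.94% and 12.4% of all genes. The lower share counts the targeted gene Irf2 itself, so it is not comparable with the share over all genes. Irf2bp1 and Irf2bp2 encode proteins that bind IRF2 and are not factors of the family. Apart from Irf2, Irf4 was thus the only family member called. The nuclear receptor list, with 7.14% lower and 14.3% higher, stood near the shares over all genes. Of 14 nuclear receptor genes tested, Nr1h2, encoding the oxysterol receptor LXR beta, rose by 1.55 ± 0.17 (adjusted p = 0.000451) with Nr4a1 KO below wild type. Pparg also rose and Nr2c2 fell (-0.71 ± 0.17, adjusted p up to 0.109 without either Irf2 KO library or Nr4a1 KO replicate 1).

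Inflammasome and pyroptosis genes were more often lower than higher in Irf2 KO, with 9 lower (45%, against 9.94%) and 3 higher (15%, against 12.4%) of 20 tested (median -0.20). Without either Irf2 KO library none was higher (0 of 20), and without Nr4a1 KO replicate 1 the median was -0.46. Gsdmd, the gene of the pore protein gasdermin D and a reported target of IRF2 in mouse macrophages, stood at 5.61 and 5.60 log2 CPM in Irf2 KO libraries, against 6.83 and 6.95 in Nr4a1 KO libraries and 7.16 and 7.26 in wild type. It fell by 1.28 ± 0.10 (adjusted p = 8.48e-05). Il1b stood at -0.62 and 0.05 in Irf2 KO libraries, against 2.57 and 3.11 in Nr4a1 KO libraries and 1.21 and 0.72 in wild type (-3.12 ± 0.35, adjusted p = 0.000511). For Il1b the knockouts lay on opposite sides of wild type. The sensor genes Naip5 (-0.90 ± 0.16), Naip2 (-0.52 ± 0.11) and Nlrp3 (-0.67 ± 0.16) fell too, and the Naip genes are close copies that may share reads. Casp1, encoding the protease that cleaves gasdermin D, rose by 0.81 ± 0.21 (adjusted p = 0.0265), a call lost without either library of Irf2 KO or of Bcl6 cKO (adjusted p up to 0.123). Without Irf2 KO replicate 2, 5 members were lower and Naip2 (adjusted p = 0.0624) and Nlrp3 were not among them, Nlrp3 losing its call without Nr4a1 KO replicate 1 too (up to 0.126).

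Of 27 inflammatory and NF-kB genes tested 9 were lower (33.3%, against 9.94% of all genes) and 3 were higher (11.1%, against 12.4%). The median was -0.40, with -0.85 without Nr4a1 KO replicate 1 and -0.24 without Nr4a1 KO replicate 2. Ccl6, a chemokine gene of myeloid cells, stood at 8.41 and 8.01 log2 CPM in Irf2 KO libraries, against 10.54 and 10.23 in Nr4a1 KO libraries and 9.53 and 9.67 in wild type (-2.18 ± 0.15, adjusted p = 5.39e-05). Il1rn, the interleukin-1 receptor antagonist gene (-2.11 ± 0.21), Tlr2 (-1.26 ± 0.21) and Cxcl2 (-2.05 ± 0.45) fell too, the call of Cxcl2 being lost without Irf2 KO replicate 1 (adjusted p = 0.0795). Nfkbia, the inhibitor of NF-kB that NF-kB itself induces, stood at 8.03 and 8.36 in Irf2 KO libraries, against 5.25 and 5.32 in Nr4a1 KO libraries and 8.76 and 9.34 in wild type (2.91 ± 0.32, adjusted p = 0.000451). A second inhibitor gene, Nfkbib, rose by 2.97 ± 0.28 and the superoxide dismutase gene Sod2 by 1.22 ± 0.15. Both inhibitor genes were below wild type in Nr4a1 KO and not called in Irf2 KO. Of 18 immediate early genes tested, Myc was higher and Btg2 (-1.36 ± 0.14), Fosl2 (-0.59 ± 0.11) and Zfp36 (-0.70 ± 0.19) were lower. That was 5.56% higher and 16.7% lower, against 12.4% and 9.94% of all genes. The median was -0.56, with 7 lower (median -0.86) without Nr4a1 KO replicate 1, a median of -0.37 without Nr4a1 KO replicate 2, and 5 lower without either Bcl6 cKO library. Fosl2 lost its call without Irf2 KO replicate 2 (adjusted p = 0.0512) and Zfp36 without Irf2 KO replicate 1 or Nr4a1 KO replicate 2 (up to 0.16).

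Early myeloid and primary granule genes, which promyelocytes and monocyte progenitors express, were higher for 7 of 20 tested (35%, against 12.4%) and lower for 3 (median 0.37). Prtn3, the proteinase 3 gene, stood at 10.29 and 10.82 log2 CPM in Irf2 KO libraries, against 8.72 and 8.79 in Nr4a1 KO libraries and 8.98 and 9.12 in wild type (1.80 ± 0.17, adjusted p = 0.000232). Mpo, the myeloperoxidase gene, stood at 9.30 and 9.30 in Irf2 KO libraries, against 8.19 and 8.31 in Nr4a1 KO libraries and 8.28 and 8.44 in wild type (1.05 ± 0.11, adjusted p = 0.000313). Ctsg, the cathepsin G gene, rose by 1.03 ± 0.14 and the elastase gene Elane by 0.59 ± 0.13. For Prtn3, Mpo and Ctsg, Irf2 KO was also above wild type. The progenitor genes Flt3 (-2.70 ± 0.61) and Cd34 (-1.53 ± 0.28) were lower, so members of the list differed in both directions. Elane lost its call without Irf2 KO replicate 2 (adjusted p = 0.0808) and Flt3 without Irf2 KO replicate 1 (0.0776).

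Of 27 IL-15 and cytokine receptor genes tested 9 were lower (33.3%, against 9.94% of all genes) and 1 was higher (3.70%, against 12.4%), with a median of -0.37. With Nr4a1 KO replicate 2 left out, 3 were higher. Il10ra, the ligand-binding chain of the interleukin-10 receptor, stood at 5.17 and 4.998 log2 CPM in Irf2 KO libraries, against 6.59 and 6.59 in Nr4a1 KO libraries and 6.45 and 6.71 in wild type (-1.51 ± 0.14, adjusted p = 0.000209). Csf3r, the G-CSF receptor gene (-1.07 ± 0.09), Tgfbr2 (-2.36 ± 0.27) and Il17ra (-1.05 ± 0.12) fell as well. Ifnar2 (-0.76) and Ifngr2 (-0.49), chains of the interferon receptors, were lower as well, and Tnfrsf1a (0.95) was higher. The call of Ifngr2 held only with all 8 libraries or without Nr4a1 KO replicate 2 (adjusted p otherwise up to 0.214). The ligand gene Il15 was not called (0.39 ± 0.38, adjusted p = 0.506), next to the 42.3-fold fall of Il15ra.

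Of 12 Fc gamma receptor and ITAM adaptor genes tested 5 were lower (41.7%) and 0 were higher, with a median of -0.43. Of the lysosomal protease genes described next 35.7% were lower and 14.3% higher, and of the Notch pathway genes 22.2% were lower. Over all genes 9.94% were lower and 12.4% higher. Tyrobp, the adaptor DAP12, stood at 10.56 and 10.59 log2 CPM in Irf2 KO libraries, against 11.21 and 11.20 in Nr4a1 KO libraries (-0.63 ± 0.10, adjusted p = 0.00324). Fcgr3 (-0.99 ± 0.16) and Fcer1g (-0.47 ± 0.09) fell too, and 3 members were lower without Nr4a1 KO replicate 1. Of 14 lysosomal protease genes tested 5 were lower and 2 were higher (median -0.35); beside Ctso and Cpq the fall included Ctsb (-0.64 ± 0.09) and Ctse (-1.26 ± 0.20), while Ctsz rose (0.49 ± 0.11; adjusted p = 0.0854 without Irf2 KO replicate 2). None of these protease genes (0 of 14) was higher without Irf2 KO replicate 2, and the median was then -0.55. Among 22 sterol and LXR target genes 4 were higher (18.2%, against 12.4% of all genes) and 3 lower (13.6%, against 9.94%), with a median of 0.22. The regulator genes of lipid synthesis Srebf1 (0.99 ± 0.18) and Srebf2 (0.82 ± 0.17; adjusted p = 0.0821 without Irf2 KO replicate 2) were higher, and the cholesterol efflux genes Apoe (-3.54 ± 0.50) and Abcg1 (-1.44 ± 0.24) were lower. Apoe stood at 1.75 and 2.34 log2 CPM in Irf2 KO libraries, against 6.44 and 4.74 in Nr4a1 KO libraries and 5.56 and 5.06 in wild type. There were, without Irf2 KO replicate 1, 2 higher sterol and LXR genes (median 0.45), and without Irf2 KO replicate 2 there was 1 (median 0.04). The median was 0.09 without Nr4a1 KO replicate 1 and 0.40 without Nr4a1 KO replicate 2. Of 18 Notch pathway genes tested 4 were lower and 0 higher (median -0.26), led by the coactivator gene Maml2 (-3.11 ± 0.46, adjusted p = 0.00207), with 1 lower without Nr4a1 KO replicate 1 and 2 lower without Irf2 KO replicate 2.

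Markers of further cell types differed in both directions. Of the plasmacytoid dendritic cell markers tested 37.5% were lower in Irf2 KO and 25% higher. For macrophage markers the shares were 25% and 12.5%, and for erythroid markers 16.7% each. Of the basophil and mast cell markers 25% were lower. Over all genes 9.94% were lower and 12.4% higher. The lists are short, so these shares rest on few genes. Of 20 T and NK cell markers 3 were in the table and none was tested, and these 3 summed to 0.258 and 0.119 CPM in Irf2 KO libraries, against 4.83 and 3.16 CPM in Nr4a1 KO libraries. Of 8 plasmacytoid dendritic cell markers tested, Il3ra (1.64 ± 0.19) and Bst2 were higher, and Ly6d (-5.33 ± 0.63), Smim5 (-2.12 ± 0.34) and Bcl11a (-0.94 ± 0.17) were lower. Of 8 macrophage markers tested, Adgre1, the gene of F4/80 (-1.30 ± 0.11), and the iron exporter gene Slc40a1 (-1.94 ± 0.42) fell, while the receptor kinase gene Axl rose by 1.56 ± 0.34. Slc40a1 lost its call without either Irf2 KO library (adjusted p up to 0.0631) and Axl without Irf2 KO replicate 1 (adjusted p = 0.0693), and 4 macrophage markers were lower without Nr4a1 KO replicate 1. Of 6 erythroid markers, the transferrin receptor gene Tfrc rose by 1.86 ± 0.20 and Hba-a1 fell by 2.21 ± 0.34, the globin gene having a near-identical copy. Lower erythroid markers numbered 2 without Irf2 KO replicate 2, Nr4a1 KO replicate 1 or either Bcl6 cKO library. The 1 megakaryocyte marker tested was Thbs1, and of 4 basophil and mast cell markers Prss34 fell (-2.60 ± 0.78, adjusted p = 0.0438), a call lost without Irf2 KO replicate 1, Nr4a1 KO replicate 2 or either library of wild type or Bcl6 cKO (adjusted p up to 0.206).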

How the data were processed

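RNA was measured by RNA-seq of 8 libraries, 2 for each of 4 genotypes. Per the labels' protocols, full-length cDNA was amplified from 10 ng of RNA and read as pairs of 150 bases. Tools named in the submitters' processing notes are STAR, Salmon, bcl2fastq, limma and featureCounts of Subread (genome build mm10); their order, and whether reads were counted by strand, are not stated there, so overlapping genes may share reads. The authors deposited log2 CPM values: reads of a gene plus 0.5, divided by the scaled total of the library plus 1, per 1e6, as a base-2 logarithm. Undoing this gave whole reads (within 0.01) for all values. Of 13789 rows, 45 repeats were dropped.

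Groups follow the labels. With limma 3.58.1 (R 4.3.3), 1 mean per genotype was fitted to the deposited log2 values of all 8 libraries with a variance trend, and Irf2 KO minus Nr4a1 KO was tested for the 12752 genes whose mean reached 0 log2 CPM. P-values were adjusted by Benjamini-Hochberg over these genes, with a threshold of 0.05. SEs have 4 residual and 4.66 prior degrees of freedom, so the spread is taken to be alike in all groups. Fits that left out 1 library assume that the lone library varies like the others. Intervals are SEs and cover no bias. The procedure was checked on simulated counts that had the same spread in every group. That check therefore does not cover groups of unlike spread, such as the Nr4a1 KO libraries here.

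The genes compared and the 33 gene lists (693 genes, 572 tested) were chosen with earlier results of these data known. Named genes are Irf2, Nr4a1 and Bcl6, the 12 genes that rose most and the 12 that fell most (called, libraries of the groups apart, mean of at least 2 log2 CPM, no predicted genes, pseudogenes or mitochondrial genes), and up to 5 called members of each list by smallest p (2 where none was called). Other members are named after their values were seen. Alternatives were other filters, scalings, variance models, a fit on recovered reads, a replicate block, a GC content and length correction, and leaving out each library. Gene positions are from GENCODE M21 (GRCm38) and promoters from RefSeq; in 2 knockouts against wild type the wild-type libraries are shared. Plots used matplotlib 3.10.9 (Python 3.11.15).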

Additional observations from a re-analysis of the deposited data

How the results depend on the processing

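With only the 4 libraries compared in the fit, 1770 genes differed and 688 were lower. Every other alternative that kept all libraries gave between 2223 (no variance trend) and 2925 genes (no filter on low values), and limma voom on recovered reads gave 2744. A replicate block gave 2868 genes, but the same number in 2 groups is not known to pair samples (correlation of their deviations 0.113 between Irf2 KO and Nr4a1 KO, and no more than 2 numbers). Under that replicate block 24 interferon-stimulated genes were higher and 2 lower, against 12 and 0 without it, 5 classical monocyte genes were higher, against 2, and 6 immediate early genes were lower, against 3. Leaving out 1 library gave 1460 to 2705 genes (795 to 1518 higher, 665 to 1187 lower; over 2-fold, 482 to 830 higher and 394 to 520 lower). The share of higher genes among those called was 55.5%, 51.1% after median centring and 49.2% after quantile normalization.

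Of 133 named genes, 130 of them called, 95 had the same call under all alternatives, and no called gene changed sign with a call. The filter at a mean of 2 log2 CPM covered 121 of the named genes, and the filter on the 4 libraries compared covered 129. S phase genes counted 12 higher with quantile normalization and 11 without the variance trend. Interferon-stimulated genes counted 6 without the variance trend and 5 with the 4 libraries alone, ribosomal protein genes 1 under either, and neutrophil markers 4 lower with the 4 libraries alone. The cause was not tested. Whether depth or the spread between replicates limits the calls was not tested; 1 CPM stood for 47.9 to 61.8 reads.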

Other observations

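Genes outside the naming rule also differed; the examples were picked with their values in view. Eif1, a factor of start codon selection, stood at 9.39 and 9.46 log2 CPM in Irf2 KO libraries, against 6.26 and 6.40 in Nr4a1 KO libraries and 10.00 and 9.97 in wild type (3.10 ± 0.18, adjusted p = 3.08e-05). The start factor gene Eif1ax (2.42 ± 0.11), the proteasome receptor gene Adrm1 (3.17 ± 0.19) and the mitochondrial ribosome genes Mrpl34 (2.13 ± 0.13) and Mrpl37 (2.04 ± 0.12) were higher by the same test. In all of these Nr4a1 KO was the lowest of the 4 genotypes. The cytokine gene Mif stood at 7.74 and 8.06 in Irf2 KO libraries, against 6.48 and 6.61 in Nr4a1 KO libraries and 6.54 and 6.64 in wild type (1.36 ± 0.12, adjusted p = 0.000186). The nuclear transport gene Ran (1.07 ± 0.11) and the chaperone gene Hspd1 (1.15 ± 0.13) were likewise highest in Irf2 KO.

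Lower in Irf2 KO was the complement protease gene C1ra, with -1.95 and -3.60 log2 CPM in Irf2 KO libraries, against 3.59 and 3.16 in Nr4a1 KO libraries and 2.82 and 2.76 in wild type (-6.16 ± 0.49, adjusted p = 0.000103). The protein kinase C substrate gene Plek stood at 4.48 and 4.46 in Irf2 KO libraries, against 6.70 and 6.89 in Nr4a1 KO libraries and 6.47 and 6.34 in wild type (-2.32 ± 0.12, adjusted p = 2.51e-05). The receptor genes Cd33 (-2.68 ± 0.28), Lilrb4a (-1.33 ± 0.14) and Clec12a (-1.20 ± 0.10) were lower as well. So were the metal transporter gene Slc11a1 (-1.70 ± 0.16), the selenoprotein gene Selenop (-1.60 ± 0.11) and the lysosomal gene Cd68 (-1.06 ± 0.08).

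The neighbours of Irf2 on chromosome 8 were looked at, with window sizes picked with the values in view. Within 10 Mb of Irf2, 14 of 41 tested genes differed (34.1%, against 22.3% of all genes), 10 lower and 4 higher, and within 20 Mb 23 of 90 (25.6%). The lower ones included Cyp4v3, with 1.08 and 0.15 log2 CPM in Irf2 KO libraries, against 4.39 and 4.70 in Nr4a1 KO libraries (-3.93 ± 0.32, adjusted p = 0.000121). They also included Stox2 (-3.04 ± 0.41), Hpgd and the ceramidase gene Asah1 (-1.15 ± 0.11). Within 10 Mb of Nr4a1 on chromosome 15, 26 of 108 tested genes differed (24.1%), among them Cox14 (1.96 ± 0.12) and Slc4a8 (3.21 ± 0.32). Whether these values come from DNA linked to the targeted alleles was not tested.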
